A study of Homo sapiens with 18 samples.

Results

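The signal recognition particle and the signal peptidase complex carry new secretory and membrane proteins into the endoplasmic reticulum (ER) and cut off their signal peptides. The 10 genes described here encode protein subunits of these machines and of the particle's receptor. They were taken from the count table by gene symbol, SRP9, SRP14, SRP19, SRP54, SRP68, SRPRB, SEC11A, SEC11C, SPCS1 and SPCS3, out of 57736 Ensembl genes in the table. All 10 were among the 17317 genes that passed the filter on low counts and were tested, with 184 to 5485 counts in a library. The mRNA was measured in 18 libraries, all labelled as A1847 cells, an established line of high-grade serous ovarian cancer, in 6 groups of 3 libraries. The cells were labelled wild type (WT), had been transduced with a lentiviral CRISPR vector against CARM1 that carries a single guide RNA (koCARM1), or carried a single lentiviral short hairpin RNA against XBP1 (shXBP1). Each genotype received vehicle (ctr) or tunicamycin at 5 µg/ml (TM) for 8 h. Whether the knockout cells are a clone or a pool is not stated in the sources used here, the modified cells were selected in puromycin, and the labels name no control vector for the WT cells, although the study's methods list a scramble hairpin. The study speaks of independent experiments in general, but the labels do not say that the 3 libraries of a group came from separate cultures. If they did not, p-values measure the spread between these libraries, which may be technical.

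As background, the signal recognition particle is an RNA with bound proteins that meets a signal peptide as it leaves the ribosome, pauses translation and docks the ribosome on its receptor in the ER membrane. Signal peptidase sits beside the translocation channel and removes the signal peptide while the chain still enters the lumen. Tunicamycin blocks N-linked glycosylation, so that unfolded glycoproteins build up in the ER and the unfolded protein response is switched on. XBP1 encodes a transcription factor of this response, made from an mRNA that the sensor IRE1α splices, and CARM1 is a protein arginine methyltransferase that acts as a transcriptional coactivator. The comparisons ask how the genes respond to ER stress and whether that response depends on CARM1 or XBP1.

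Library totals ran from 9367462 to 13917212 counts with a median of 12899157. The knockout libraries stood apart. Across the genes tested, their log2 levels correlated with those of the WT libraries at Pearson's r of 0.730 to 0.769, against 0.961 to 0.987 between WT and shXBP1 libraries. Among 8 epithelial markers, the summed level was 309.8 to 485.9 CPM, which are counts scaled to a common library size, in WT and 2252 to 2773 CPM in the knockout libraries, and MUC16 was at 0 in all groups. The sum was 130.4 to 214.7 CPM in shXBP1. KRT8 and KRT18 were called lower there with both treatments, by -1.61 and -1.19 on the log2 scale with vehicle. The 5 fibroblast markers did not move together. In the knockout with vehicle, COL1A2 was at 0.247 CPM against 823 CPM in WT, COL1A1 was at 479 against 14.95 CPM, and PDGFRB did not pass the test. Their sum was 714.6 to 889.8 CPM in WT, 186.6 to 501.3 CPM in the knockout and 582.7 to 861.4 CPM in shXBP1, where COL1A1 and PDGFRB were called lower with both treatments. The part of these markers in the differences of the members was not tested. PAX8, which marks ovarian serous carcinoma, had a mean of 0.0503 CPM in WT ctr, 0.0473 CPM in shXBP1 ctr and 61.2 CPM in koCARM1 ctr. Whether the WT, shXBP1 or knockout libraries match the labelled line was not tested. The loss of CARM1 and other differences of the knockout line therefore cannot be told apart in any comparison between the knockout and WT. The 4 leukocyte markers summed to at most 3.55 CPM and the 3 endothelial markers to at most 0.318 CPM. CARM1 mRNA was lower in koCARM1 than in WT by a log2 fold change of -1.17 ± 0.05 with vehicle and -0.92 ± 0.06 with tunicamycin, and was still counted there. XBP1 mRNA was lower in shXBP1 by -0.86 ± 0.09 and -1.06 ± 0.05, respectively. With tunicamycin it still rose in shXBP1, from 25.4 ± 1.25 to 71.6 ± 2.35 CPM, above the mean of 45.9 CPM in WT ctr. XBP1 mRNA was also called lower in koCARM1 than in WT with vehicle, by -0.47 ± 0.11, but not under tunicamycin, at -0.06. CARM1 mRNA was called higher in shXBP1 than in WT, by 0.22 with vehicle and 0.37 with tunicamycin. In bulk RNA, fewer cells of a type and less RNA per cell cannot be told apart.

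Promoter windows of the genes are shown first, since several members moved together with tunicamycin. RefSeq windows of 300 bases, from 250 bases before to 50 after an annotated start, were found for 9 of the 10 members by symbol, and each window of GRCh38.p14 had a single exact match in GRCh37, whose positions are given. The 5 windows printed belong to 3 members that rose with tunicamycin and hold a searched motif with ACGT at its core, and to both catalytic subunits of signal peptidase. Capitals mark the motif letters, on either strand.
SRP19, chr5:112196734-112197033, plus strand: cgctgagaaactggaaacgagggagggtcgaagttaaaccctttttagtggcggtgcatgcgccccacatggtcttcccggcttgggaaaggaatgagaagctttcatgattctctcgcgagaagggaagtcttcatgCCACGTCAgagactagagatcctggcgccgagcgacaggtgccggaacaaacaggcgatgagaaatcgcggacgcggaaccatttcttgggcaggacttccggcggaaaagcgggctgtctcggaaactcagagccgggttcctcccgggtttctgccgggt
SRPRB, chr3:133524409-133524708, plus strand: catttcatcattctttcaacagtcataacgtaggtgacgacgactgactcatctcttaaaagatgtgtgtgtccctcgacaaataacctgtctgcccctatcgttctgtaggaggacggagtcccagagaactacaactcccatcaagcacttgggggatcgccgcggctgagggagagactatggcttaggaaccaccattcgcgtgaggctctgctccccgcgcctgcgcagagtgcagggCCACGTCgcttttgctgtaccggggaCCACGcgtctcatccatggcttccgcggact
SRP54, chr14:35451948-35452247, plus strand: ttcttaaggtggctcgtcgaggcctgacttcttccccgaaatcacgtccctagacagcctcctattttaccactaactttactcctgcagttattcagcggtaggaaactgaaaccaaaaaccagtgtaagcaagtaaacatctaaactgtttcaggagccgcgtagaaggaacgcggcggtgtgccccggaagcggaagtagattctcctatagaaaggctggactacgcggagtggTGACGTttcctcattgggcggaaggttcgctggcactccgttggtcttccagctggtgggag
SEC11C, chr18:56806866-56807165, plus strand: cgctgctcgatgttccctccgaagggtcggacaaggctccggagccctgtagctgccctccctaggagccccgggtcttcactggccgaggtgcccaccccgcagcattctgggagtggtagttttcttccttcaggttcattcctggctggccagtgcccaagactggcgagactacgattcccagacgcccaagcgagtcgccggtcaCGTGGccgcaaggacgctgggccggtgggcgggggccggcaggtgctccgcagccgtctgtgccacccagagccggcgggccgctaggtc
SEC11A, chr15:85259321-85259620, minus strand: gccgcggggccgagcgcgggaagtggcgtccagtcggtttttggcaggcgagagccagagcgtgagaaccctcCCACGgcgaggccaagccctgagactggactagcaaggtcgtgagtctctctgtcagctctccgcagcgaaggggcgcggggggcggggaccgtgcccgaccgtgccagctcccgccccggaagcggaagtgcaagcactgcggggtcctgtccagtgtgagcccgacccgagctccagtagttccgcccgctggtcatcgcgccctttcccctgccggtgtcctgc
Both strands were searched for 4 motifs. The first was ACGTCA, which is part of the cAMP response element. The study reports this motif as enriched around the starts of CARM1-bound genes. It likens the motif to the core of the one known for the XBP1 protein made from spliced mRNA. The next was GACGTGG, which holds an ACGT core as well. The third, CCACG, ends the ER stress response element, and its reverse complement lies within the longer motif just named, so that their matches overlap. The last was the whole ER stress response element. The longer motif, GACGTGG, was found in SRP19, at bases -112 to -106 from the annotated start, and in SRPRB, at -7 to -1, and in 3.13% of all 35116 windows. The first motif was found in SRP19, where it overlaps the longer one, and in SRP54, at -12 to -7, and in 7.98% of all windows. The third motif was found in 6 of the 9 members with a window, in SEC11A and SEC11C alike, and in 38.1% of all windows. The whole ER stress response element was found in 0 of the 9 members and in 0.0769% of all windows. Of the members whose windows are not printed, SRP68, which rose with tunicamycin in WT, and SRP9, which did not pass, held only the third motif. SPCS3, which rose, and SRP14, which was called lower, held none of the 4 motifs. A match of letters is a description of the window and not a measured binding site.

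Tunicamycin in WT cells gave higher levels of 6 members and a lower level of 1, and 3 did not pass the test, which was edgeR's quasi-likelihood test at a false discovery rate (FDR) of 5% throughout. Of all genes tested, 22.0% were called higher and 19.9% lower in this comparison. The rise was not shared by the mRNAs of all proteins of a machine. SRP19, SRP54 and SRP68 of the particle, the receptor subunit SRPRB, and SEC11C and SPCS3 of signal peptidase rose between 1.66-fold and 3.92-fold, while SRP9, SEC11A and SPCS1 changed by at most 0.12 on the log2 scale and did not pass. The median log2 fold change of the 10 members was 0.89, beside 0 over all genes tested. SRP19, SRP54, SRP68 and SEC11C also stand in a list of target genes that the study drew up. It used expression in these libraries, those of the knockout and knockdown included, and separately measured binding of CARM1 and the XBP1 protein. The direction of these genes here, and their differences from WT in koCARM1 and shXBP1, are therefore not independent evidence.

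SRP9 (ENSG00000143742, chr1:225965515-225978170) and SRP14 (ENSG00000140319, chr15:40327891-40331382) encode the pair that binds the Alu domain of the particle's RNA and slows elongation. SRP9 stood at 167, 172 and 207 CPM in WT ctr and at 199, 175 and 179 CPM in WT TM. These groups overlapped, and the log2 fold change was 0.03 ± 0.08 (adjusted p = 0.828). SRP14 stood at 231, 236 and 176 CPM in WT ctr and at 173, 188 and 172 CPM in WT TM. The third control library lay within the range of the tunicamycin libraries and the other two lay above it. SRP14 fell by 0.26 on the log2 scale (SE 0.09, adjusted p = 0.0249), and the call was lost when WT ctr replicate 1 or 2 or WT TM replicate 1 or 3 was left out, with adjusted p from 0.0567 to 0.142. SRP9 has a processed copy, SRP9P1, with 48 to 101 counts in a library, and reads shared between the gene and the copy could have been split in the counting.

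SRP19 (ENSG00000153037, chr5:112196885-112234068) encodes the protein that folds the S domain of the particle's RNA so that SRP54 can bind. In WT ctr its level was 71.0, 76.8 and 78.9 CPM, and in WT TM it was 262, 236 and 253 CPM. Every tunicamycin library was above every control library, and the log2 fold change was 1.74 ± 0.06, which is 3.34-fold (adjusted p = 2.10e-12). The end of SRP19 overlaps REEP5 on the opposite strand, and whether counting used strand is not given in the sources used here. REEP5 itself stood at 115 ± 5.51 CPM (SD, n = 3) in WT ctr and at 116 ± 4.28 CPM in WT TM, with a log2 fold change of 0.03 ± 0.06.

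SRP54 (ENSG00000100883, chr14:35451163-35498892) encodes the GTPase that holds the signal peptide. It was at 40.9, 48.4 and 47.9 CPM in WT ctr and at 96.6, 94.99 and 94.1 CPM in WT TM, again without overlap. Its log2 fold change was 1.07 ± 0.07 (adjusted p = 4.56e-09). SRP68 (ENSG00000167881, chr17:74034856-74068598) encodes a large S-domain protein that binds the RNA together with SRP72. The 3 WT ctr libraries held SRP68 at 104, 92.6 and 98.2 CPM and the 3 WT TM libraries at 216, 194 and 219 CPM. The groups stood apart, with a log2 fold change of 1.11 ± 0.07 (adjusted p = 9.42e-10). SRP72, the partner of SRP68 and no member of the set, went from 373 ± 6.21 CPM to 646 ± 19.9 CPM (mean ± SD, n = 3), a log2 fold change of 0.80 ± 0.05 (adjusted p = 1.47e-09). The mRNAs of all 4 S-domain proteins therefore rose, and that of neither Alu-domain protein did.

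SRPRB (ENSG00000144867, chr3:133502867-133544616) encodes the membrane-anchored beta subunit of the receptor. Its level was 107, 101 and 111 CPM in WT ctr and 217, 219 and 222 CPM in WT TM. These libraries did not overlap, and the log2 fold change was 1.05 ± 0.06 (adjusted p = 2.80e-10). SRPRA, the alpha subunit that contacts SRP54, rose from 99.6 ± 3.02 to 178 ± 5.19 CPM (mean ± SD, n = 3), a log2 fold change of 0.85 ± 0.06 (adjusted p = 3.91e-09). The end of SRPRB overlaps RAB6B on the other strand, which had 14 to 291 counts in a library. That of SRPRA overlaps FAM118B on the opposite strand, which had 144 to 434 counts, and its part in the values of SRPRA was not tested.

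SEC11A (ENSG00000140612, chr15:85212769-85259691) and SEC11C (ENSG00000166562, chr18:56807098-56826064) encode the alternative catalytic subunits of signal peptidase. SEC11A stood at 362, 339 and 367 CPM in WT ctr and at 369, 399 and 384 CPM in WT TM. The tunicamycin libraries were just above the control libraries, and the log2 fold change of 0.12 ± 0.05 did not pass the test (adjusted p = 0.0880), although it passed without WT ctr replicate 3 (adjusted p = 0.0439). SEC11C stood at 55.3, 48.6 and 51.5 CPM in WT ctr and at 195, 200.04 and 209 CPM in WT TM. It had the largest change of the 10 members, with a log2 fold change of 1.97 ± 0.07 or 3.92-fold (adjusted p = 7.27e-13), and lay at percentile 97.7 of all genes tested.

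SPCS3 (ENSG00000129128, chr4:177241117-177253396) encodes an accessory subunit with a large domain in the lumen that the enzyme needs for its activity. It rose from 157, 155 and 148 CPM to 257, 252 and 247 CPM, without overlap, at a log2 fold change of 0.73 ± 0.05 (adjusted p = 1.09e-08). SPCS1 (ENSG00000114902, chr3:52738971-52745164) encodes a small membrane subunit that is not needed for cleavage itself. Its libraries were at 66.1, 68.7 and 73.1 CPM in WT ctr and 72.3, 65.5 and 74.7 CPM in WT TM. They overlapped, with a log2 fold change of 0.04 ± 0.07 (adjusted p = 0.681). SPCS2, the remaining accessory subunit and no member of the set, rose from 114 ± 0.812 to 211 ± 5.30 CPM (mean ± SD, n = 3), a log2 fold change of 0.90 ± 0.05 (adjusted p = 1.02e-09). Levels of different genes are not compared, because tags at the end of a transcript and reads shared with other genes are not counted alike for each gene.

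**Figure D1:**
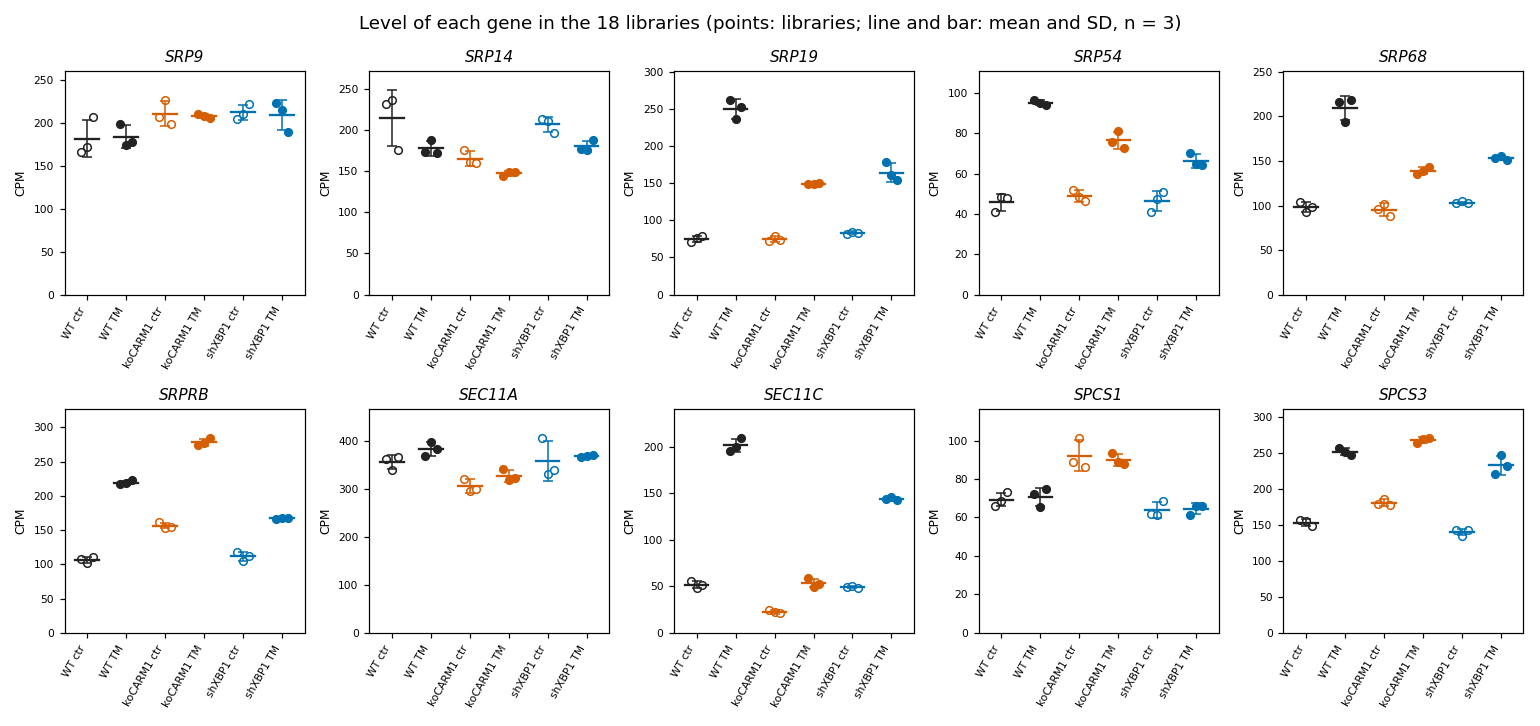
Level of each of the 10 genes in CPM (y axis, from 0) in the 6 groups (x axis), with vehicle as open and tunicamycin as filled points, 1 point per library, and lines and bars for the mean and SD of 3 libraries. In WT the tunicamycin libraries of SRP19, SRP54, SRP68, SRPRB, SEC11C and SPCS3 lie above the vehicle libraries, whereas those of SRP9 and SPCS1 overlap them.

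In koCARM1 cells, tunicamycin gave higher levels of 7 members and a lower level of 1, with 20.6% of all genes tested called higher and 18.8% lower. The members called higher were the 6 of WT cells and SEC11A. SRP19 went from 72.2, 79.0 and 73.6 CPM to 148, 149 and 149.8 CPM, a log2 fold change of 1.03 ± 0.05 (adjusted p = 3.54e-14). SEC11C, from a lower start, went from 24.3, 21.9 and 21.1 CPM to 58.8, 49.5 and 52.4 CPM, a log2 fold change of 1.28 ± 0.08 (adjusted p = 2.00e-11). In neither gene did the 2 groups overlap. The log2 fold changes of SRP54, SRP68, SRPRB and SPCS3 were 0.68 ± 0.06, 0.58 ± 0.05, 0.87 ± 0.04 and 0.60 ± 0.04. SEC11A rose by 0.13 ± 0.04 (adjusted p = 0.0106) with overlapping libraries, and SRP14 fell by 0.13 (SE 0.04, adjusted p = 0.0179) without overlap. With all libraries in 1 fit neither passed (adjusted p = 0.230 and 0.0975). Each of these small calls depended on single libraries: SEC11A was lost without koCARM1 ctr replicate 2 or 3 or koCARM1 TM replicate 1 (adjusted p 0.0517 to 0.0662), and SRP14 without replicate 1 of either group (adjusted p 0.0684 and 0.140). SRP9 and SPCS1 did not pass, at 0.01 ± 0.04 and -0.000749 ± 0.05.

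In shXBP1 cells, 6 members were called higher and 1 lower with tunicamycin, beside 19.2% and 19.0% of all genes tested. SRP19 went from 81.5, 85.0 and 83.5 CPM to 178, 161 and 154 CPM, a log2 fold change of 0.97 ± 0.06 (adjusted p = 4.36e-09). SEC11C rose from 49.0, 49.8 and 47.8 CPM to 144, 146 and 143 CPM, a log2 fold change of 1.55 ± 0.05 (adjusted p = 4.25e-12). Both genes kept clear gaps between the groups. SRP54, SRP68, SRPRB and SPCS3 had log2 fold changes of 0.51 ± 0.08, 0.56 ± 0.05, 0.58 ± 0.05 and 0.72 ± 0.05. SRP14 fell by 0.21 (SE 0.05, adjusted p = 0.00361), and its libraries did not overlap. SRP9, SEC11A and SPCS1 did not pass, at -0.03 ± 0.06, 0.03 ± 0.06 and 0.00468 ± 0.06, but SEC11A passed at 0.13 without shXBP1 ctr replicate 1 (adjusted p = 0.0224). The subunits outside the set rose in both modified genotypes. SRP72 had 0.52 ± 0.03 in koCARM1 and 0.39 ± 0.04 in shXBP1, SRPRA 1.13 ± 0.05 and 0.54 ± 0.05, and SPCS2 0.64 ± 0.04 and 0.67 ± 0.05.

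**Figure D2:**
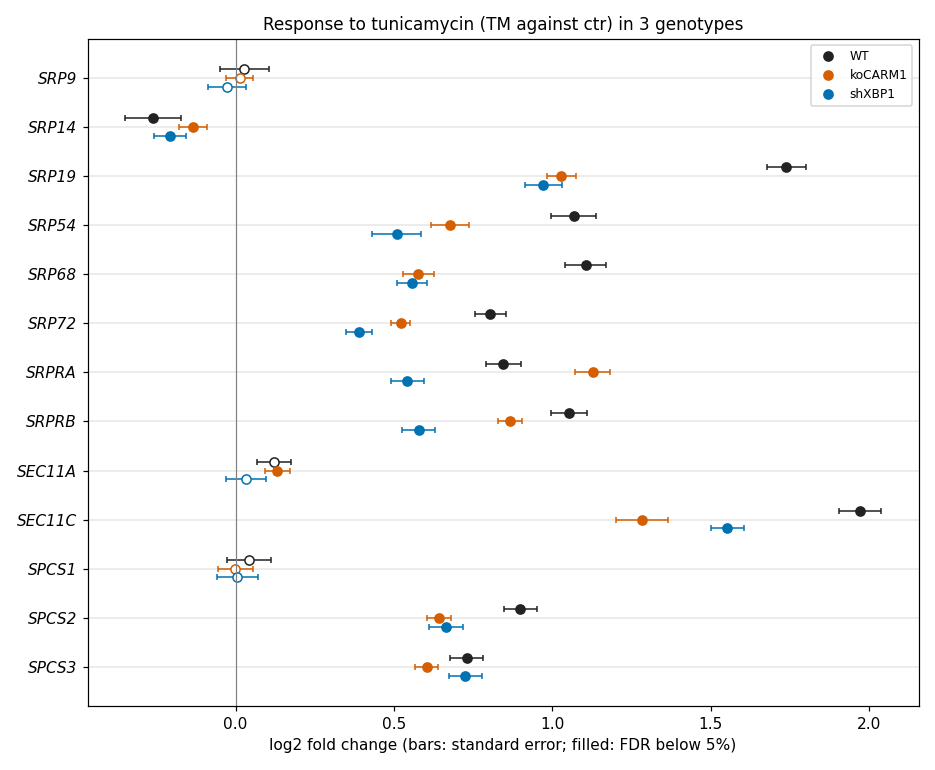
Log2 fold change with tunicamycin (x axis) of the 10 genes and of SRP72, SRPRA and SPCS2 (y axis) in WT, koCARM1 and shXBP1 cells, with bars for the standard error and filled points for calls at an FDR of 5%. For SRP19, SRP54, SRP68, SRPRB and SEC11C the WT point lies to the right of those of the modified genotypes, while SRP9 and SPCS1 lie near 0 in each.

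Without tunicamycin, the XBP1 hairpin left no member past the test: 0 were called higher and 0 lower by edgeR's quasi-likelihood test, beside 2.07% and 3.03% of all genes tested. At an unadjusted p under 0.05, 3 members passed, and DESeq2 called 0 in either direction. The log2 fold changes ran from -0.14 for SPCS3 to 0.22 for SRP9. SRP9 stood at 205, 211 and 222 CPM in shXBP1 ctr, overlapping the highest of the WT ctr libraries, and its adjusted p was 0.113. Without WT ctr replicate 3 it was called higher, at 0.32 (adjusted p = 0.00213), as it was with no filter on low counts (adjusted p = 0.00527).

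Under tunicamycin, 5 members were lower in shXBP1 than in WT and 0 higher, beside 8.55% and 6.99% of all genes tested. These were SRP19, SRP54, SRP68, SRPRB and SEC11C, and for each of them all 3 shXBP1 TM libraries lay below all 3 WT TM libraries. SRP19 was at 164 ± 12.6 CPM (SD, n = 3) against 250.4 ± 13.2 CPM, a log2 fold change of -0.61 ± 0.06 (adjusted p = 5.19e-06). SRP54, at 66.3 ± 3.27 against 95.2 ± 1.23 CPM, differed by -0.52 ± 0.06 (adjusted p = 2.01e-05). SRP68 differed by -0.45 ± 0.05 and SRPRB by -0.39 ± 0.05. SEC11C was at 144 ± 1.56 against 201 ± 7.08 CPM, a difference of -0.48 ± 0.05 (adjusted p = 6.92e-06). SPCS3, which rose with tunicamycin in each genotype, did not pass here, at -0.11 ± 0.05 (adjusted p = 0.158). SRP9 was at 0.19 (adjusted p = 0.0634) and was called higher without WT TM replicate 1 (adjusted p = 0.0163) or shXBP1 TM replicate 3 (adjusted p = 0.0244), with no filter (adjusted p = 0.00551) and with the replicate block (adjusted p = 0.0227).

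Between koCARM1 and WT with vehicle, 4 members were higher and 3 lower, beside 37.5% and 36.9% of all genes tested. SEC11C was lower in the knockout, at 24.3, 21.9 and 21.1 CPM against 55.3, 48.6 and 51.5 CPM, a log2 fold change of -1.25 ± 0.08 (adjusted p = 1.88e-09). SRP14 differed by -0.42 ± 0.09 and SEC11A by -0.26 ± 0.05. SRPRB was higher in the knockout, at 161, 153 and 155 CPM against 107, 101 and 111 CPM, a log2 fold change of 0.51 ± 0.05 (adjusted p = 2.84e-07). RAB6B, which overlaps its end on the opposite strand, was at 21.3 ± 1.34 CPM in koCARM1 ctr and 3.18 ± 0.588 CPM in WT ctr, and its part in the difference of SRPRB was not tested. SPCS1 differed by 0.37 ± 0.07, and NEK4, on the strand opposite its end, by 0.29 ± 0.10. SPCS3 differed by 0.19 ± 0.05 and SRP9 by 0.17 ± 0.07. The call of SRP9 had an adjusted p of 0.0485 and was lost in 4 of the 6 fits that left a library out, those without replicate 1 or 2 of either group (adjusted p 0.0791 to 0.228). SRP19, SRP54 and SRP68 did not pass, at -0.06 ± 0.06, 0.05 ± 0.08 and -0.08 ± 0.06.

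Under tunicamycin each of the 10 members was called between koCARM1 and WT, 4 higher and 6 lower, beside 38.4% and 36.8% of all genes tested. SEC11C was the furthest apart, at 53.6 ± 4.72 CPM (SD, n = 3) in the knockout and 201 ± 7.08 CPM in WT, a log2 fold change of -1.91 ± 0.06 (adjusted p = 5.46e-13). SRP19 was at 149 ± 0.699 CPM in the knockout, lower by -0.74 ± 0.05 on the log2 scale (adjusted p = 1.87e-09). SRP68 and SRP54 differed by -0.58 ± 0.05 and -0.31 ± 0.06, SRP14 by -0.26 ± 0.05 and SEC11A by -0.22 ± 0.05. SRPRB remained higher in the knockout, at 279 ± 5.11 CPM against 219 ± 2.90 CPM, with a log2 fold change of 0.35 ± 0.04. SPCS1 differed by 0.35 ± 0.06 and SRP9 by 0.18 ± 0.05. SPCS3 differed by 0.10 ± 0.04 (adjusted p = 0.0451), and that call was lost in 5 of the 6 fits that left a library out, all but the fit without WT TM replicate 1 (adjusted p 0.0561 to 0.135), and also with no filter on low counts (adjusted p = 0.0689), with all libraries in 1 fit (adjusted p = 0.0714) and with the replicate block (adjusted p = 0.104).

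**Figure D3:**
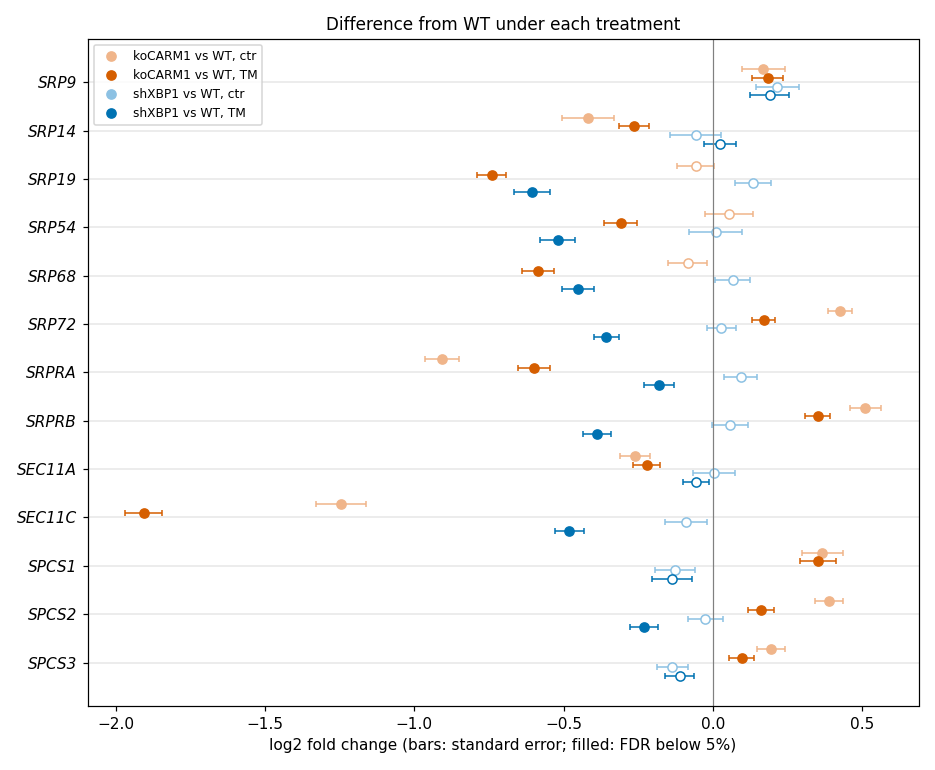
Log2 fold change of koCARM1 and shXBP1 against WT (x axis) with vehicle (pale) and tunicamycin (dark) for the 10 genes and SRP72, SRPRA and SPCS2 (y axis), with bars for the standard error and filled points for calls at an FDR of 5%. The shXBP1 points with vehicle lie within 0.22 of 0, and under tunicamycin those of SRP19, SRP54, SRP68, SRPRB and SEC11C lie between -0.61 and -0.39.

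The interaction term asks directly whether the response to tunicamycin differs from that of WT cells. Against koCARM1, 5 members had a smaller response in the knockout and 0 a larger one, beside 12.4% of all genes tested with a negative term called and 10.5% with a positive one. Against shXBP1, 5 members had a smaller response in the knockdown and 0 a larger one, beside 1.67% and 0.364% of all genes tested. The WT libraries enter both terms, so that these counts are not separate observations of the WT response. The study's list of target genes, which holds SRP19, SRP54, SRP68 and SEC11C, was drawn in part from these libraries. The terms of these genes are therefore not independent evidence for that list. SRP19 differed in response by -0.73 ± 0.08 in koCARM1 (adjusted p = 7.04e-07) and by -0.76 ± 0.09 in shXBP1 (adjusted p = 3.94e-05). For SRP68 the terms were -0.55 ± 0.09 in koCARM1 (adjusted p = 9.77e-05) and -0.54 ± 0.08 in shXBP1 (adjusted p = 5.94e-04). SRP54 had terms of -0.41 ± 0.10 (adjusted p = 0.00352) and -0.55 ± 0.11 (adjusted p = 0.00682), in the same order. None of these 3 S-domain genes passed the test against WT with vehicle in either genotype, and each was lower than WT under tunicamycin in both.

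SEC11C had terms of -0.71 ± 0.10 in koCARM1 (adjusted p = 4.05e-05) and -0.41 ± 0.08 in shXBP1 (adjusted p = 0.00591). In the knockout this came on top of a lower level with vehicle, which was not called in shXBP1, where it was -0.09 ± 0.07. The terms of SRPRB were -0.21 ± 0.06 in koCARM1 (adjusted p = 0.0246) and -0.47 ± 0.07 in shXBP1 (adjusted p = 0.00116). The call of SRPRB in koCARM1 was lost in 9 of the 12 fits that left a library out, all but those without koCARM1 ctr replicate 2 or 3 or koCARM1 TM replicate 3, with terms down to -0.11 (adjusted p 0.0531 to 0.314), while its call in shXBP1 was kept in each. With no filter on low counts the koCARM1 call was lost as well, at -0.14 (adjusted p = 0.323). SPCS3 did not pass in either, at -0.14 ± 0.06 (adjusted p = 0.0975) and 0.00288 ± 0.07 (adjusted p = 1). SRP9, SRP14, SEC11A and SPCS1 had terms between -0.08 and 0.11 and did not pass, but SRP14 passed in koCARM1 at 0.30 without WT ctr replicate 3 (adjusted p = 0.00328). Outside the set, SRP72 had terms of -0.30 ± 0.05 and -0.41 ± 0.06, both called. SRPRA had a larger response in koCARM1, at 0.26 ± 0.08, and a smaller response in shXBP1, at -0.30 ± 0.07, so that the receptor subunits SRPRA and SRPRB had terms of opposite sign in the knockout. The call of SRPRA was lost in 2 of 12 such fits in koCARM1, those without koCARM1 ctr replicate 1 or koCARM1 TM replicate 3, and in 7 of 12 in shXBP1. The 7 were those without WT ctr or WT TM replicate 1 or 2, shXBP1 ctr replicate 2, or shXBP1 TM replicate 2 or 3. The shXBP1 call of SRPRA was also lost with no filter (adjusted p = 0.0758) and with the replicate block (adjusted p = 0.0561). SPCS2 had terms of -0.28 ± 0.06, which was called but lost without WT ctr replicate 1 (adjusted p = 0.0508) or with no filter (adjusted p = 0.0606), and -0.23 ± 0.07, which was not called.

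The balance between the mRNAs of the catalytic subunits moved with these changes. The ratio of SEC11C counts to SEC11A counts, which needs no scaling between libraries, was 0.153, 0.143 and 0.140 in WT ctr and 0.529, 0.501 and 0.544 in WT TM. In koCARM1 it was 0.0755, 0.0738 and 0.0700 with vehicle and 0.172, 0.156 and 0.162 with tunicamycin. In shXBP1 it was 0.121, 0.151 and 0.141 with vehicle and 0.392, 0.396 and 0.385 with tunicamycin. The knockout with tunicamycin lay above WT and shXBP1 with vehicle, by a narrow margin, and no library of the knockout overlapped a WT library of the same treatment. The ratio compares changes of a pair of genes and not their absolute amounts.

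**Figure D4:**
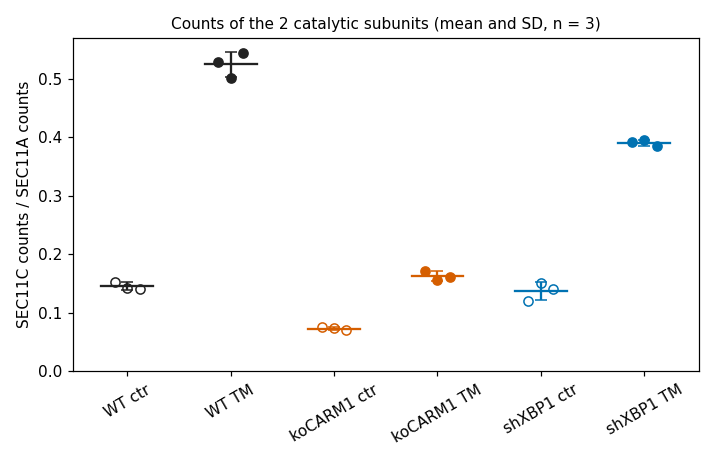
Ratio of SEC11C to SEC11A counts (y axis, from 0) in the 6 groups (x axis), with 1 point per library and lines and bars for the mean and SD of 3 libraries. The means are 0.145 and 0.525 in WT, 0.0731 and 0.163 in koCARM1 and 0.137 and 0.391 in shXBP1, with vehicle and tunicamycin in that order.

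The order of the 6 groups by level differed between genes, also within the S domain. For SRP54 the 3 vehicle groups overlapped at the bottom, followed by shXBP1 TM, koCARM1 TM and WT TM, each apart from the next. SRP68 had its 3 vehicle groups at the bottom as well, then koCARM1 TM, shXBP1 TM and WT TM, each apart. SRP72 went the other way, with koCARM1 TM at the top above WT TM, and with koCARM1 ctr at 517 CPM overlapping shXBP1 TM at 504 CPM. SRP19 had koCARM1 ctr and WT ctr overlapping at the bottom, shXBP1 ctr just above them, then koCARM1 TM, shXBP1 TM and WT TM, all apart. SRPRB and SPCS3 ended instead with koCARM1 TM at the top, above WT TM. For SEC11C, koCARM1 ctr was lowest, the libraries of koCARM1 TM overlapped those of WT ctr, and shXBP1 TM and WT TM stood above. SRP9, SRP14, SEC11A and SPCS1 had orders in which most neighbours overlapped. The WT groups were the lowest for SRP9, koCARM1 TM was the lowest for SRP14, koCARM1 ctr was the lowest for SEC11A, and the knockout groups were the highest for SPCS1.

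The neighbouring steps of ER import were read from lists of other genes. With tunicamycin in WT, 22.0% of all genes tested were called higher and 19.9% lower. Of 9 genes of the translocon and the translocon-associated TRAP complex, which form the channel and its partners, 8 rose and 0 fell with tunicamycin in WT, with a median log2 fold change of 1.34. Their extremes were SSR4, a TRAP subunit, at 1.70 ± 0.16 (adjusted p = 2.65e-07) and SEC61A2, an alternative channel subunit, at 0.05 ± 0.11, which did not pass. Of 9 genes of routes beside the particle, 6 rose and 1 fell, with a median of 0.32. SEC63, a partner of the channel in post-translational import, had the highest value at 1.65 ± 0.07 (adjusted p = 7.53e-12), and UBL4A, which serves tail-anchored proteins, had the lowest at -1.62 ± 0.09 (adjusted p = 2.70e-10). Of 5 genes of nascent chain factors, ribosome receptors and signal peptide peptidase, 2 rose and 0 fell, with a median of 0.12. RRBP1, a ribosome-binding protein of the ER, was highest at 1.28 ± 0.06, and KTN1, which encodes kinectin, was lowest at -0.04 ± 0.06 and did not pass.

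In koCARM1, 8 of the 9 translocon and TRAP genes, 5 of the 9 genes of other routes and 3 of the 5 remaining genes rose with tunicamycin, and 0, 2 and 0 fell. Of all genes tested, 20.6% were called higher there and 18.8% lower. In shXBP1, 6, 4 and 2 genes of the same lists rose and 0, 1 and 1 fell, beside 19.2% and 19.0% of all genes tested. Under tunicamycin, all 9 translocon and TRAP genes were lower in shXBP1 than in WT, with a median of -0.54, while of the other routes 1 was lower and 1 higher. Of all genes tested, 8.55% were called lower in that comparison and 6.99% higher. Over all genes tested, the interaction term was called negative for 12.4% in koCARM1 and 1.67% in shXBP1, and positive for 10.5% and 0.364%. The response of the translocon and TRAP genes was called smaller for 6 of 9 in koCARM1 and for 5 of 9 in shXBP1. For the routes beside the particle it was smaller for 3 of 9 and larger for 1 in koCARM1, and 0 of 9 were called either way in shXBP1, where the unadjusted p was under 0.05 for 3 and DESeq2 called 0. For the 5 remaining genes, 2 were smaller in koCARM1 and 2 in shXBP1. Between shXBP1 and WT with vehicle, 0 genes of these lists were called by edgeR's quasi-likelihood test. Of all genes tested, 2.07% were called higher and 3.03% lower. With the 3 other subunits counted in, 5 of the 26 genes had an unadjusted p under 0.05. DESeq2 called 0 of the 26.

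**Figure D5:**
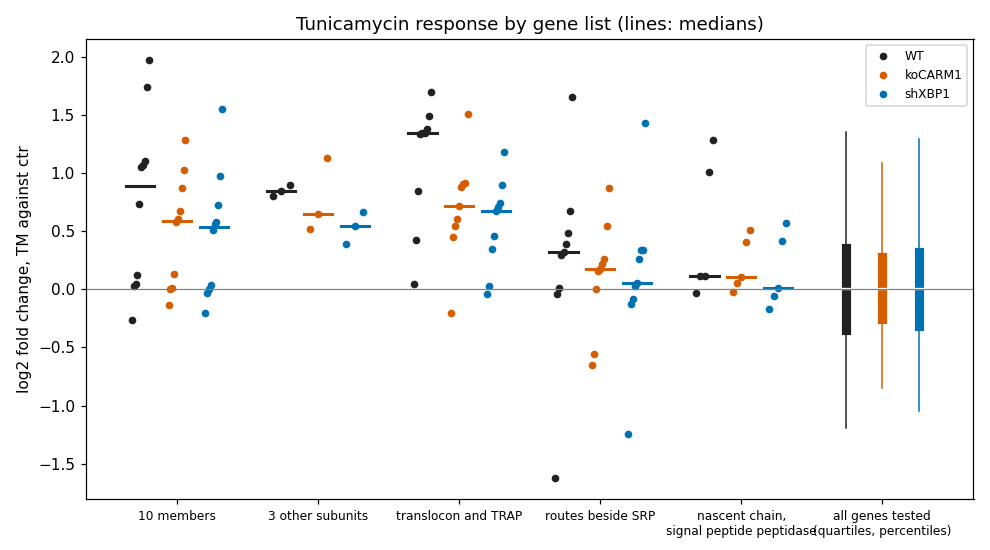
Log2 fold change with tunicamycin (y axis) in WT, koCARM1 and shXBP1 cells for the 10 members, the 3 other subunits and the 3 lists (x axis), with 1 point per gene and lines for medians. The bars at the right span the quartiles and the lines the 5th to 95th percentile of all 17317 genes tested, whose median is 0, and the medians of the members are 0.89, 0.59 and 0.53.

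The genes whose log2 CPM ran most like that of a member were sought among the 9514 genes, members aside, whose log2 CPM averaged 3 or more. These are correlations over libraries of few groups, which share treatment and line, and are given as a description. Over the 18 libraries, SEC11C was most like MSTO1 (Pearson's r = 0.992) and ZNF555 (0.991), SRP19 most like PRRC1 (0.987) and GORASP2 (0.985), and SRP54 most like LZTFL1 (0.977) and GOLGB1 (0.968). SRP68 was most like RNASEH1 (0.988) and SEC31A (0.981), SRPRB most like MTDH (0.990) and SRP72 (0.984), and SPCS3 most like CARS1 (0.988) and NBR1 (0.985). SPCS1 went with DNAJC13 (0.953), SEC11A with APTX (0.921), SRP14 with the gene listed as ENSG00000271043 (0.957) and SRP9 with PPA1 (0.825). Over the 12 libraries without the knockout, SEC11C was most like SEC61A1 (0.999), the main channel subunit, and GABARAPL1 (0.998). SRP19 was most like SEC13 (0.997) and SERP1 (0.997), and SRP68 most like SRP72 (0.993) and UFM1 (0.993). SRPRB was most like FTSJ1 (0.995) and HM13 (0.994), which encodes signal peptide peptidase. SPCS3 was most like BEX2 (0.995) and PREPL (0.993), and SRP54 most like RTCA (0.988) and CDR2 (0.987). Among the rest, SRP9 went with GNPAT (0.929), SRP14 with BPTF (0.953), SEC11A with CBX8 (0.891) and SPCS1 with SERAC1 (0.874). The first gene named differed between the 2 sets of libraries for each of these.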

How the data were processed

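Total RNA of A1847 cells went into Lexogen 3′ mRNA libraries, read from 1 end over 75 nt. Alignment by the authors was with bowtie2 on hg19, and the deposited values are RSEM's estimated counts (expected counts) for Ensembl genes, not normalized and already whole. The Ensembl release, the use of strand in counting and any filter are not given in the sources used here. All columns were mapped to labelled samples, with 0 left over.

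Counts were rounded and analysed in R 4.3.3 with edgeR 4.0.16. The steps were filterByExpr with a minimum count of 10 over all libraries, TMM normalization, a quasi-likelihood fit of the compared groups alone, and Benjamini-Hochberg adjustment over the 17317 genes tested, with calls at an FDR of 5%. Standard errors were derived from the F statistic and the log2 fold change. CPM used TMM factors over the genes tested. Log2 CPM used a prior count of 2. Values written with ± after a log2 fold change are standard errors, and after CPM they are SDs.

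The 7 comparisons of group pairs and the 2 interaction terms were made for all genes, and the members, the other subunits of the same complexes, and the highest and lowest gene with tunicamycin in WT cells of each pathway list are named. The members and lists were chosen with earlier results of these data known. The genes that overlap the end of a member or of another subunit were named afterwards. Alternatives were DESeq2's size factors, DESeq2 1.42.0, no filter, a replicate block, 1 fit of all libraries, calls only at 1.5-fold or more, a stricter FDR of 1%, and omission of each library in turn. A fit with 1 library left out takes its spread from the remaining libraries. Replicate pairs differed beyond counting error in all 18 pairs, with chi-square per degree of freedom of 1.84 to 6.89. Scripts were tested on simulated data. Gene names came from an Ensembl table that matched 55501 of the 57736 genes, and positions from GENCODE on GRCh37.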

Additional observations from a re-analysis of the deposited data

Results flagged for a closer look

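The response to tunicamycin differed from that of WT cells, by edgeR's quasi-likelihood test of the interaction term, for 5 members in each modified genotype, and each difference was a smaller rise. Over all genes tested, the term was called negative for 12.4% and positive for 10.5% in koCARM1, and for 1.67% and 0.364% in shXBP1. In koCARM1 the differences on the log2 scale were -0.73 for SRP19, -0.41 for SRP54, -0.55 for SRP68, -0.21 for SRPRB and -0.71 for SEC11C. The difference of SRPRB in koCARM1 did not pass with no filter on low counts (-0.14, adjusted p = 0.323) or in 9 of the 12 fits that left a library out. In shXBP1 they were -0.76 for SRP19, -0.55 for SRP54, -0.54 for SRP68, -0.47 for SRPRB and -0.41 for SEC11C. The same WT libraries serve both sets of terms, and both the knockout and the shXBP1 libraries also differ from WT in epithelial and fibroblast markers, whose part in the differences was not tested. SRP19, SRP54, SRP68 and SEC11C stand in the study's list of target genes, drawn in part from these libraries, so that their differences are not independent evidence for it.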

How the results depend on the processing

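Every alternative kept the direction and the call of SRP19, SRP54, SRP68, SRPRB, SEC11C and SPCS3 with tunicamycin in WT cells. A demand for at least 1.5-fold lowered the counts of members called. With tunicamycin, the lower calls went from 1 to 0 in WT, in koCARM1 and in shXBP1. The higher calls went from 7 to 5 in koCARM1, where SRP68 and SEC11A were lost, and from 6 to 3 in shXBP1. Under the same demand, koCARM1 against WT with vehicle went from 4 higher to 0 and from 3 lower to 1, koCARM1 against WT under tunicamycin from 4 higher to 0 and from 6 lower to 2, and shXBP1 against WT under tunicamycin from 5 lower to 1. The smaller responses went from 5 to 2 in koCARM1 and from 5 to 1 in shXBP1. These losses follow from the demand itself, since the log2 fold changes are the same. At an FDR of 1%, the lower call of SRP14 was lost with tunicamycin in WT and in koCARM1 (1 to 0 in each). That threshold also ended the calls of SEC11A with tunicamycin in koCARM1, SRP9 and SPCS3 between koCARM1 and WT with vehicle and under tunicamycin, respectively, SRPRA between shXBP1 and WT under tunicamycin, the interactions of SRPRB and SRPRA in koCARM1, and that of SRPRA in shXBP1. With all libraries in 1 fit, the calls with tunicamycin in koCARM1 were lost for SRP14 (1 lower to 0) and SEC11A (adjusted p = 0.230), and so was that of SPCS3 between koCARM1 and WT under tunicamycin (adjusted p = 0.0714). With no filter, 1 member (SRP9) was called higher in shXBP1 than in WT with vehicle and 1 (SRP9) under tunicamycin. No filter ended the interactions of SRPRB in koCARM1 (-0.14, adjusted p = 0.323), SPCS2 in koCARM1 (adjusted p = 0.0606) and SRPRA in shXBP1 (adjusted p = 0.0758), and the call of SPCS3 between koCARM1 and WT under tunicamycin (adjusted p = 0.0689). Under tunicamycin the replicate block also gave 1 higher call in shXBP1 (SRP9, log2 fold change 0.19, adjusted p = 0.0227). It lost the call of SPCS3 between koCARM1 and WT under tunicamycin (adjusted p = 0.104) and that of the SRPRA interaction in shXBP1 (adjusted p = 0.0561), and changed no other call of a member or other subunit. Libraries with the same number did not deviate together (r -0.048 to 0.0387, own number best in 5 of 21). This gave no sign that the numbers pair samples, but it cannot show that samples were not handled in pairs. The cause of the changes with no filter, 1 fit or the block was not tested.

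Uncalled values near 0 changed sign. With no filter, SPCS1 with tunicamycin in koCARM1 became 0.000734, and the interaction in koCARM1 became 0.038 for SRP9, 0.063 for SEC11A and 0.0086 for SPCS1, and in shXBP1 0.0039 for SPCS1. With the replicate block, SPCS1 with tunicamycin in koCARM1 became 0.0032 and SEC11A in shXBP1 with vehicle -0.0011. With all libraries in 1 fit, SRP9 with tunicamycin in koCARM1 became -0.022. The SEC11A interaction in koCARM1 became 0.00800 with DESeq2's size factors and 0.00783 with DESeq2.

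With each library left out in turn, the members called lower with tunicamycin numbered 0 to 1 in WT and 0 to 1 in koCARM1. The members called higher numbered 0 to 1 in shXBP1 against WT with vehicle, 0 to 1 under tunicamycin, and 0 to 1 for the interaction in koCARM1. Signs changed for uncalled log2 fold changes with tunicamycin of SRP9 (-0.047 to 0.13) and SPCS1 (-0.0061 to 0.090) in WT, of SRP9 (-0.024 to 0.059) and SPCS1 (-0.039 to 0.065) in koCARM1, and of SRP9 (-0.072 to 0.042), SEC11A (-0.024 to 0.13) and SPCS1 (-0.026 to 0.060) in shXBP1. Against WT with vehicle this held for SRP54 in koCARM1 (-0.0037 to 0.12) and for SRP54 (-0.064 to 0.092), SRP14 (-0.18 to 0.018), SEC11A (-0.092 to 0.059) and SPCS2 (-0.078 to 0.0065) in shXBP1, and under tunicamycin for SRP14 in shXBP1 (-0.0080 to 0.063). It also held for the interaction in koCARM1 of SRP9 (-0.070 to 0.10), SEC11A (-0.038 to 0.092) and SPCS1 (-0.10 to 0.051), and in shXBP1 of SRP9 (-0.15 to 0.030), SRP14 (-0.014 to 0.18), SEC11A (-0.14 to 0.018), SPCS1 (-0.083 to 0.023) and SPCS3 (-0.041 to 0.044).

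Over all genes, the counts of calls moved by more than 1.5 times under some alternative in 7 comparisons, given with their range over all alternatives. With tunicamycin they were 3808 (2011 to 3936) higher and 3450 (1650 to 3774) lower in WT, 3572 (1357 to 3638) higher and 3264 (1058 to 3329) lower in koCARM1 and 3333 (1533 to 3606) higher and 3297 (1396 to 3493) lower in shXBP1. For shXBP1 against WT they were 359 (79 to 696) higher and 524 (237 to 771) lower with vehicle and 1210 (212 to 1502) higher and 1481 (502 to 1692) lower under tunicamycin. The interaction gave 1814 (882 to 2392) higher and 2151 (1059 to 2152) lower in koCARM1 and 63 (12 to 279) higher and 290 (115 to 479) lower in shXBP1. DESeq2's size factors shifted the log2 fold changes of all genes by a median of at most 0.0393. This bound does not cover the other alternatives. With no filter, the interaction in koCARM1 moved from -0.21 to -0.14 for SRPRB and from -0.28 to -0.21 for SPCS2. Depth limits SEC11C in koCARM1 ctr the most, where the lowest count of any member, 184, was found.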
